A study of Mus musculus with 22 samples.

Results

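The genes described here build the acrosome and the sperm head or carry out fertilization: 41 mouse genes listed by symbol for vesicle trafficking to the acrosome, acrosome anchoring, acrosomal content, hyaluronidases, lysozyme-like proteins, egg binding and fusion, the perinuclear theca, testis chaperones of the endoplasmic reticulum (ER), and a pair of other sperm proteins. The list was drawn up by function, with no measured value in the rule, though earlier results of these data were known. Of the 41, 40 were matched by symbol among the 17931 genes of the RNA-seq count table. The transcript level of the other gene, Dcst2, was not analysed here. RNA-seq had been run on whole testes of 3 wild-type (WT) males and 3 males with a constitutive deletion of Mlx (MLX KO), all 7 months old, to ask how loss of this glucose-sensing transcription factor alters the testis transcriptome. The WT males were verified fertile breeders, each paired by number with a KO littermate, and the KO allele lacks the exons that encode the bHLHLZ region through which MLX dimerizes and binds DNA. The deletion is present in every cell of the animal, so germ cells and the somatic cells around them lack the protein alike, and a whole testis holds all of these cells. The labels give no other treatment. Library sizes ran from 16674678 to 19742726 counts.

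The acrosome is a secretory vesicle that forms from the Golgi apparatus of round spermatids and caps the sperm nucleus. It holds the enzymes and binding proteins that are released or exposed as a sperm crosses the cumulus and zona pellucida, and its membranes carry the proteins that later meet the egg. The perinuclear theca, a cytoskeletal shell, fastens it to the nucleus, and ER chaperones of the testis fold its surface proteins. Transcription of most of these genes begins in late spermatocytes or round spermatids.

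The count of Mlx itself did not separate the genotypes. Its counts were 128, 96 and 98 in the WT libraries and 94, 109 and 102 in the KO libraries, so the ranges overlapped. A count per gene cannot separate the deleted exons from those left in place. It therefore gives no check of the genotype labels, which are used here as given. Why the KO counts were not clearly lower was not tested. Germ cell and somatic markers of the testis, given further on, were present, and markers of the epididymis epithelium were nearly absent, with at most 4 counts of Crisp1 and at most 3 of Lcn5, Rnase9 and Spink13 in any library.

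Before the levels, promoter windows of some members are shown. Most of those printed hold a sequence that was searched for, whereas most members searched held none. Whether these sequences bear on the members' fall was not tested. Promoter windows from RefSeq (GRCm38.p6, 250 bases before to 50 bases after each annotated start) were found for 34 of the 41 genes, as 44 windows. They were searched on both strands for TGACGTCA, the full cAMP response element used by the spermatid activator CREM, for its core TGACG, which every TGACGTCA also holds, and for CACGTG, the E-box bound by the MYC and MAX family to which MLX belongs. Capitals mark these letters, and CGTCA is TGACG read from the other strand. Positions count from the start of transcription at +1. Izumo1 held the full element, Spaca1 held the core at more than 1 position, Zpbp2 held it on the opposite strand, Dpy19l2 and Crisp2 held the E-box, and Cylc1, the member with the largest change, held none of them. The windows printed are chr7:45621671-45621810, plus strand for Izumo1, chr4:34050116-34050145, minus strand for Spaca1, chr11:98550907-98551006, plus strand for Zpbp2, chr9:24696294-24696373, minus strand for Dpy19l2, chr17:40794122-40794221, minus strand for Crisp2, and chrX:111110298-111110417, plus strand for Cylc1.
Izumo1: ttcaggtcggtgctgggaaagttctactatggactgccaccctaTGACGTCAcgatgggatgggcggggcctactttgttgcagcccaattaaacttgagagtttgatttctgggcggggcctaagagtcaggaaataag
Spaca1: ttcgaatggggTGACGcgcggTGACGcctc
Zpbp2: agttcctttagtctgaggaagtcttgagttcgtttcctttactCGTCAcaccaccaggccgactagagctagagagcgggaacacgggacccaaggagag
Dpy19l2: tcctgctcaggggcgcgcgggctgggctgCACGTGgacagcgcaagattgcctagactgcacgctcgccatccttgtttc
Crisp2: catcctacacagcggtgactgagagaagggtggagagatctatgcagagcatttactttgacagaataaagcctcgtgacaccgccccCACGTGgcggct
Cylc1: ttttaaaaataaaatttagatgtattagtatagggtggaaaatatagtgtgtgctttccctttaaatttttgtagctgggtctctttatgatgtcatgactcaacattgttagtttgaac
The core TGACG stood in 14 of the 44 member windows (31.8%) and in 20.8% of all 32851 promoter windows of the same length. It was found at 12 genes: Acrbp, Calr3, Dpy19l2, Gopc, Izumo1, Lyzl4, Pick1, Spaca1, Spaca3, Spesp1, Tcp11 and Zpbp2. Gopc, Lyzl4 and Pick1, which did not pass the test below, were among them. The full TGACGTCA stood in 1 of 44 member windows, at position -96 of Izumo1, and in 1.79% of all windows. The E-box CACGTG stood in 2 of 44 member windows (4.55%), at -51 of Dpy19l2 and +14 of Crisp2, and in 7.15% of all windows. These counts describe letters in a window and no test was made of them.

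Most transcripts of the acrosome and sperm head were lower in MLX KO testes, and the median member fell by 18.1%. In edgeR's quasi-likelihood test, with p-values adjusted after Benjamini-Hochberg across all 14640 genes that were tested, 34 of the 40 members fell at an adjusted p under 0.05. None rose in edgeR or DESeq2, nor did any at an unadjusted p under 0.05 in edgeR, where Spaca5 joined those that were lower. Among all genes tested, 20.6% (3015) were called lower and 24.8% (3634) higher. The median log2 fold change (LFC, KO minus WT) of the members was -0.29, beside a median of 0.025 over all genes tested. All 40 LFCs lay below 0, from -0.58 for Cylc1 to -0.015 for Gopc. In 37 of the 40 members the 3 KO libraries lay below all 3 WT libraries in CPM (counts scaled to a common library size with TMM factors), a separation seen in 25.9% (3790) of all genes tested.

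The change was spread over the members. Of the 40, 30 had an LFC at or below -0.2 and 29 of those 30 were called, while 3 lost over 25% of their WT level: Cylc1, Zpbp2 and Crisp2. The median member LFC within littermate pairs was -0.19 in pair 1, -0.35 in pair 2 and -0.29 in pair 3. KO1 was the highest of the KO libraries in 34 of the 40 members, and KO2 the lowest in 26. Without KO1, 36 members were called lower, and without KO2 or without KO3, 30 were. The shares of all genes called in these fits, and at the LFC cut of -0.2, are not given here. Together the 40 genes held 1.22%, 1.24% and 1.22% of the counts of the WT libraries and 1.12%, 1.06% and 1.06% of the KO libraries. Without Crisp2 and Tcp11, the other 38 held 0.746%, 0.752% and 0.739% in WT and 0.693%, 0.663% and 0.669% in KO, so the shares stayed apart without overlap.

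The size of the fall depended on scaling. TMM factors were 0.944 to 0.961 in WT and 1.02 to 1.07 in KO, and scaling by library size alone raised the median LFC of all genes by 0.139. Under that scaling 24 of the 40 members were called lower and 0 higher, beside 8.66% (1268) lower and 36.5% (5343) higher of all genes. The members' median LFC was then -0.15, beside 0.16 for all genes, and 36 of the 40 stayed below 0. With the littermate pair as a block, edgeR called 32 members lower (20.5% of all genes, 3007) and DESeq2 called 30 (16.1% of all genes, 2355). The genes lost under the block were Spaca1 and Acr in both tools and Spaca3 and Lyzl6 in DESeq2.

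**Figure D1:**
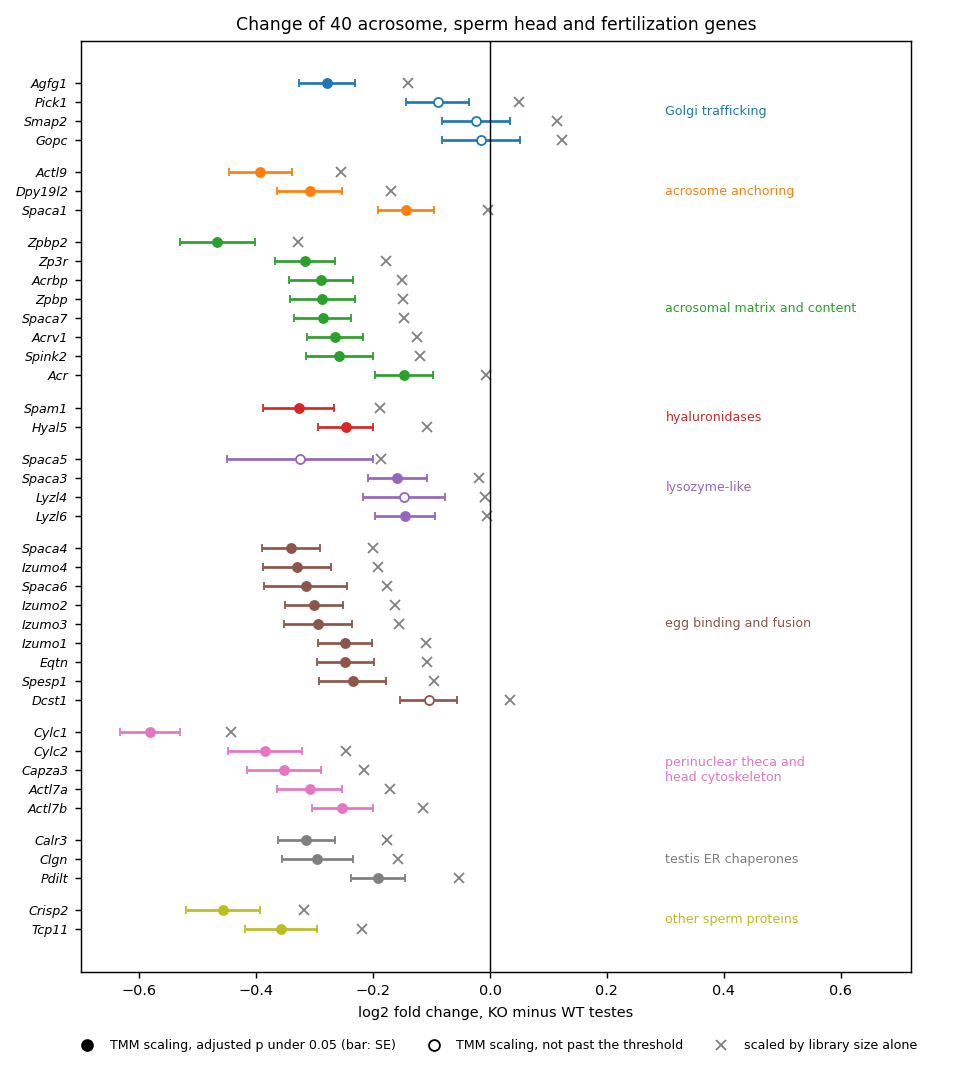
The LFC of each of the 40 members, KO minus WT, grouped by role on the vertical axis, with bars for the SE of 3 against 3 libraries. Filled points passed the edgeR test, open points did not, and crosses give the LFC after scaling by library size alone; all 40 points under TMM scaling lie left of 0, and 36 of the 40 crosses do.

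The trafficking genes divided. Agfg1, needed for the docking and fusion of proacrosomal vesicles, was measured at 229, 243 and 235 CPM in WT and 201, 190.4 and 191 CPM in KO. The groups did not overlap, and the transcript fell by 17.6% (LFC -0.28, SE 0.0482, edgeR adjusted p = 0.000898). Gopc, a Golgi PDZ protein that carries vesicles to the growing acrosome, stood at 44.8, 41.9 and 38.5 CPM in WT and 42.5, 40.7 and 40.8 CPM in KO. Its groups overlapped and its mean was nearly level (LFC -0.015, SE 0.0668, edgeR adjusted p = 0.867). Smap2, a regulator of the small GTPase Arf at the trans-Golgi, also overlapped between genotypes, with 53.4 ± 1.24 CPM in WT and 52.5 ± 3.03 CPM in KO (SD, n = 3 each; LFC -0.024). Pick1, which works with Gopc in vesicle transport, had all KO libraries at or under 64.5 CPM and all WT libraries at or over 64.7 CPM, a gap too small to pass the test (LFC -0.090, edgeR adjusted p = 0.200). Scaled by library size alone, the LFCs of Gopc, Smap2 and Pick1 lay above 0, at 0.12, 0.11 and 0.049, with none called. The exons of Pick1 share 18.6% of their length with Gm49486 on the same strand.

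All 3 genes that anchor the acrosome to the nucleus fell, by unequal amounts. Actl9, an actin-like protein of the theca, was measured at 473, 505 and 519.8 CPM in WT and 399, 366 and 376 CPM in KO. Every KO library lay below every WT library, and the transcript fell by 23.9% (LFC -0.39, SE 0.0541, edgeR adjusted p = 0.000231). Dpy19l2, an inner nuclear membrane protein under the acrosome (chr9:24557047-24696457, minus strand, mm10), gave 312, 313 and 312 CPM in WT and 271, 236 and 249.8 CPM in KO. Its WT libraries agree closely, with an SD of 0.849 CPM, and the KO mean of 252 ± 17.8 CPM lay outside their range (LFC -0.31, SE 0.0554, edgeR adjusted p = 0.00114). Spaca1, of the inner acrosomal membrane, gave 204, 210.0 and 194 CPM in WT and 186, 179.5 and 184 CPM in KO. Its groups were separate but close, the highest KO library standing just under the lowest WT library (LFC -0.14, edgeR adjusted p = 0.0308). Its call was lost with the pair as a block, at an adjusted p of 0.0604 in edgeR and 0.0546 in DESeq2. Scaled by library size alone, the LFC of Spaca1 was -0.0043 (edgeR adjusted p = 0.941).

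The content of the acrosome fell in all 8 genes measured, with a median LFC of -0.29 and a range from -0.47 to -0.15. Zpbp2, a zona pellucida binding protein of the acrosomal matrix (chr11:98551097-98558665, plus strand, mm10), was measured at 323, 338 and 315 CPM in WT and 259, 222 and 225 CPM in KO. The groups lay well apart, and it fell the most of the 8 (LFC -0.47, SE 0.0637, edgeR adjusted p = 0.000219). Its paralog Zpbp was measured at 271, 274 and 269 CPM in WT and 238, 206 and 222 CPM in KO. Zpbp fell by 18.1% where Zpbp2 fell by 27.6%. Within a library the Zpbp to Zpbp2 count ratio was 0.18 higher in KO on the log2 scale, without overlap between genotypes, but 3 against 3 libraries cannot give an exact permutation p below 0.1, which is what this ratio gave (two-sided; 0.233 after adjustment over 7 ratios).

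Acr, which encodes the protease acrosin (chr15:89568326-89578853, plus strand, mm10), was among the least changed of the called members, at 206, 222 and 219 CPM in WT and 200.3, 191 and 193 CPM in KO. WT and KO did not overlap, but the gap between the nearest libraries was small (LFC -0.15, edgeR adjusted p = 0.0301). With the pair as a block the adjusted p was 0.0607 in edgeR and 0.0533 in DESeq2, so the call was lost. Scaled by library size alone, the LFC of Acr was -0.0076 (edgeR adjusted p = 0.888). Acrbp, which binds proacrosin and holds it inactive, was measured at 476, 490.0 and 492 CPM in WT and 427, 383 and 383 CPM in KO. It fell further than Acr (LFC -0.29, SE 0.0543, edgeR adjusted p = 0.00147), and the Acr to Acrbp count ratio was 0.14 higher in KO on the log2 scale with no overlap (exact permutation p = 0.1, the smallest possible; 0.233 after adjustment). Gm44597 covers 29.8% of the exon length of Acrbp on the same strand.

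The remaining matrix and content genes changed alike. Spink2, a Kazal inhibitor that restrains acrosomal proteases, was measured at 289, 298 and 273 CPM in WT and 257, 230.1 and 232 CPM in KO and fell by 16.4% (LFC -0.26, SE 0.0570, edgeR adjusted p = 0.00377). Zp3r, a large matrix protein, fell by 19.7%, from 177 ± 5.29 CPM in WT to 142 ± 7.02 CPM in KO (SD, n = 3 each). Spaca7, released at acrosomal exocytosis, fell by 18.0%, and Acrv1, an early acrosomal antigen, fell by 16.8%. In each of these genes all KO libraries lay below all WT libraries.

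Both sperm hyaluronidases, which digest the cumulus matrix and lie in 1 gene cluster on chromosome 6, fell. Spam1 (PH-20; chr6:24791188-24801048, plus strand, mm10) was measured at 86.3, 98.3 and 89.9 CPM in WT and 71.9, 76.95 and 69.8 CPM in KO. Hyal5 (chr6:24857937-24891959, plus strand) gave 142, 143 and 134 CPM in WT and 117, 117 and 119 CPM in KO. Neither gene overlapped between genotypes, with LFC -0.33 (SE 0.0605, edgeR adjusted p = 0.00134) for Spam1 and -0.25 (SE 0.0472, edgeR adjusted p = 0.00162) for Hyal5. Their ratio within libraries overlapped and was -0.081 in KO minus WT on the log2 scale (exact permutation p = 0.3, two-sided; 0.42 after adjustment over 7 ratios).

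The lysozyme-like genes, whose products sit in the acrosome and on the sperm surface, all had LFCs below 0, and 2 of 4 were called lower. Spaca3 gave 111, 119 and 115 CPM in WT and 108, 99.9 and 101 CPM in KO. Lyzl6 gave 109, 112 and 102 CPM in WT and 99.9, 96.9 and 95.8 CPM in KO. Each kept its genotypes apart by a narrow margin, and both were called (LFC -0.16, edgeR adjusted p = 0.0254, and LFC -0.15, edgeR adjusted p = 0.0381). With the pair as a block DESeq2 gave adjusted p-values of 0.0724 and 0.0932. Scaled by library size alone, the LFCs of Spaca3 and Lyzl6 were -0.020 and -0.0061, and neither was called. The X-linked Spaca5 was the member with the lowest counts, at 6.27, 7.31 and 7.33 CPM in WT and 5.62, 5.53 and 5.51 CPM in KO. Its groups did not overlap and its LFC of -0.33 was further from 0 than that of Spaca3, but its SE was 0.124 and it missed the threshold (edgeR adjusted p = 0.0518). Lyzl4 overlapped between genotypes, with KO1 above WT1 in pair 1 (LFC -0.15, edgeR adjusted p = 0.108).

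Among genes for egg binding and fusion, 8 of the 9 measured fell, with a median LFC of -0.29. Izumo1, the sperm protein that binds the egg receptor Juno (chr7:45621811-45627242, plus strand, mm10), was measured at 89.9, 93.7 and 92.2 CPM in WT and 79.1, 77.3 and 75.7 CPM in KO. All KO libraries lay below all WT libraries, and Izumo1 fell by 15.8% (LFC -0.25, SE 0.0463, edgeR adjusted p = 0.00141). Rasip1 covers 21.9% of the exon length of Izumo1 on the same strand, so some of its counts could belong to that gene.

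The other IZUMO family members fell by a like amount. Izumo2 was measured at 73.1, 69.6 and 69.4 CPM in WT and 57.8, 56.8 and 57.6 CPM in KO. Izumo3 stood at 121 ± 4.13 CPM in WT and 98.3 ± 6.92 CPM in KO, and Izumo4 at 82.9 ± 4.87 CPM in WT and 65.9 ± 2.99 CPM in KO (SD, n = 3 each). None of them overlapped between genotypes, and their LFCs were -0.30, -0.29 and -0.33. The Izumo1 to Izumo4 ratio was 0.083 higher in KO on the log2 scale with overlapping libraries (exact permutation p = 0.2, two-sided; 0.35 after adjustment over 7 ratios).

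Spaca6, a sperm membrane protein required for fusion, was measured at 31.5, 29.7 and 31.9 CPM in WT and 23.5, 25.1 and 26.3 CPM in KO. It was among the lowest members per length, and the KO libraries still lay below the WT libraries (LFC -0.32, SE 0.0715, edgeR adjusted p = 0.00431). Spaca4, a surface protein that binds the zona, had the largest LFC of the role: it gave 73.4, 77.4 and 78.2 CPM in WT and 60.4, 58.8 and 61.7 CPM in KO, and it fell by 21.0% (LFC -0.34, SE 0.0502, edgeR adjusted p = 0.000351). Spesp1, of the equatorial segment, fell with an LFC of -0.24, and Eqtn, equatorin, with an LFC of -0.25. Dcst1, a transmembrane protein that sperm need for fusion, gave 105, 102 and 105 CPM in WT and 100.2, 97.4 and 92.6 CPM in KO. The genotypes did not overlap there, yet the difference did not pass the test (LFC -0.11, edgeR adjusted p = 0.0969), and a pseudogene, Gm10702, covers 24.2% of its exon length on the opposite strand.

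The perinuclear theca and sperm head cytoskeleton had the largest median LFC of the roles with over 2 genes, at -0.35, and all 5 of its genes fell. Cylc1, a cylicin of the theca on the X chromosome (chrX:111110418-111125854, plus strand, mm10), was measured at 134, 125 and 134 CPM in WT and 88.2, 90.3 and 84.0 CPM in KO. No KO library came within 30 CPM of a WT library, and Cylc1 fell by 33.2% (LFC -0.58, SE 0.0514, edgeR adjusted p = 1.55e-05). Cylc2, the autosomal cylicin (chr4:51216653-51250625, plus strand), was measured at 159.9, 137 and 149 CPM in WT and 120.0, 112 and 109 CPM in KO. It too was separate between genotypes and fell by 23.4% (LFC -0.38, SE 0.0631, edgeR adjusted p = 0.000654). The Cylc1 to Cylc2 ratio was lower in every KO library, with -0.20 in KO minus WT on the log2 scale (exact permutation p = 0.1, the smallest possible; 0.233 after adjustment over 7 ratios).

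Capza3, a germ cell subunit of the actin capping protein, was measured at 287, 256 and 251 CPM in WT and 221, 202 and 198 CPM in KO and fell by 21.7% (LFC -0.35, SE 0.0633, edgeR adjusted p = 0.00112). Plcz1, on the opposite strand, covers 7.01% of its exon length. Actl7a and Actl7b are neighbouring intronless genes for actin-like proteins. Actl7a gave 387, 402 and 411 CPM in WT and 346, 308 and 314 CPM in KO. Actl7b gave 699, 733 and 689.8 CPM in WT and 625, 586 and 569.9 CPM in KO. Neither gene overlapped between genotypes. Actl7a fell by 19.3% and Actl7b fell by 16.1%, and their ratio overlapped between genotypes (-0.057 in KO minus WT on the log2 scale; exact permutation p = 0.5, two-sided; 0.583 after adjustment). An annotation on the opposite strand covers 90.9% of the exon length of Actl7b, and the strand setting of the counts is not given in the sources used here.

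The testis ER chaperones, which fold surface proteins that sperm need at the zona, all fell. Clgn (calmegin) was measured at 798, 819 and 783 CPM in WT and 714, 627 and 615 CPM in KO. Calr3 (calsperin) gave 145, 147 and 145 CPM in WT and 123, 112 and 116 CPM in KO. Both were separate between genotypes, at LFC -0.30 (edgeR adjusted p = 0.00253) and -0.31 (edgeR adjusted p = 0.000493), and the ratio of the pair was 0.017 in KO minus WT on the log2 scale (exact permutation p = 0.8, two-sided) and -0.014 without KO1. Pdilt, a testis protein disulfide isomerase relative, fell by 12.4% (LFC -0.19, SE 0.0462, edgeR adjusted p = 0.00605).

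Crisp2 and Tcp11, the most abundant members, are a cysteine-rich secretory protein of the acrosome and tail and a protein linked to capacitation. Crisp2 (chr17:40764734-40794146, minus strand, mm10) was measured at 2269, 2314 and 2184 CPM in WT and 1790.0, 1543 and 1597 CPM in KO. Tcp11 was measured at 2688, 2852 and 2877 CPM in WT and 2356, 2158 and 2054 CPM in KO. KO1 was the highest KO library in both, and neither gene overlapped between genotypes. Crisp2 fell by 27.2% (LFC -0.46, SE 0.0628, edgeR adjusted p = 0.000228) and Tcp11 fell by 22.0% (LFC -0.36, SE 0.0618, edgeR adjusted p = 0.000894).

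**Figure D2:**
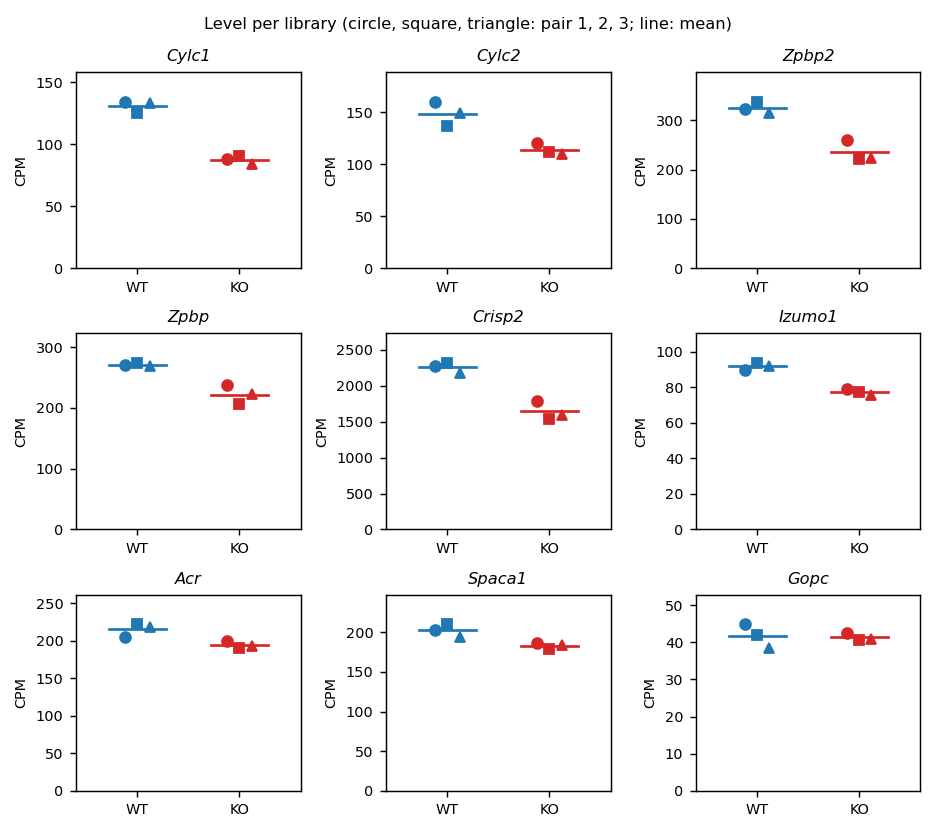
CPM of 9 members in each library on axes that start at 0, with WT on the left, KO on the right, marker shapes for the littermate pairs and lines for the means. Cylc1, Cylc2, Zpbp2, Zpbp, Crisp2, Izumo1, Acr and Spaca1 show all KO points below all WT points, whereas the points of Gopc overlap.

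Levels between genes were compared per length, as WT CPM per kb of exon. Crisp2 was highest at 800.5 ± 23.4 (SD, n = 3), followed by Tcp11 at 730.5 ± 26.7, Actl7b at 492 ± 15.8, Actl9 at 364 ± 17.2 and Spink2 at 364 ± 15.8 CPM per kb. Actl9 and Spink2 did not differ beyond their spread. The lowest members were Gopc at 3.81 ± 0.288 and Spaca6 at 4.39 ± 0.168 CPM per kb. Across the 40 members the LFC was lower where the WT level was higher (Pearson r = -0.435 and Spearman rho = -0.297 against the log2 level), a description over genes that share the same 6 libraries. Gopc, Pick1 and Smap2, with LFCs near 0, were all among the lower levels, but Spaca6, lower than all but Gopc, had an LFC of -0.32. Against exon length the values were r = 0.223 and rho = 0.153.

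**Figure D3:**
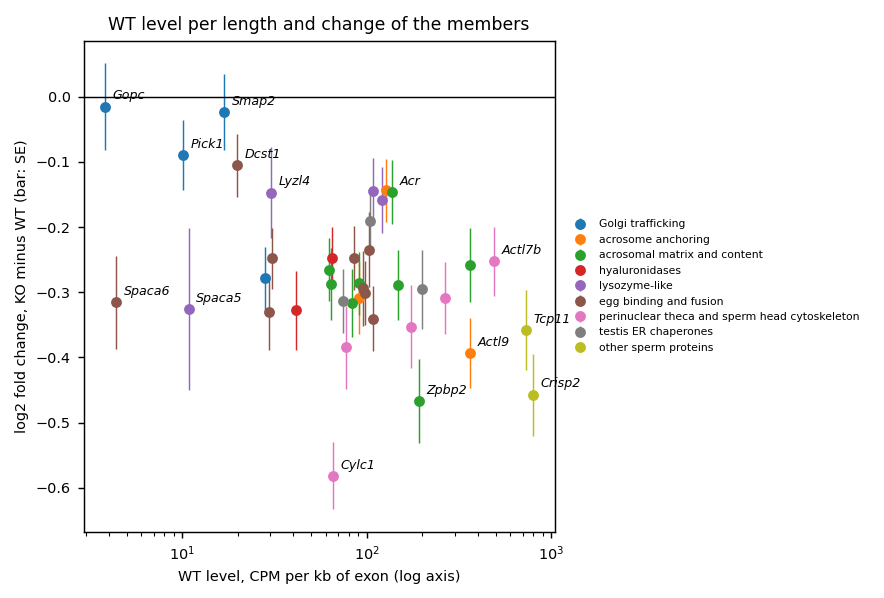
WT level of each member in CPM per kb of exon (horizontal log axis) against its LFC with SE bars (vertical axis), coloured by role. Gopc, Pick1 and Smap2 sit at low levels with LFCs near 0, while Crisp2 at 800.5 and Tcp11 at 730.5 CPM per kb have LFCs of -0.46 and -0.36 and Cylc1 has the lowest LFC.

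Spermatid markers and most spermatocyte markers fell like the members, whereas the somatic markers rose. All 10 elongating spermatid markers fell (median LFC -0.54), and their summed level was 23014 to 23975 CPM in WT and 13660 to 16646 CPM in KO. All 8 round spermatid markers fell as well (median -0.30, 3031 to 3130 CPM in WT and 2314 to 2613 CPM in KO), and 7 of 10 spermatocyte markers did (median -0.16). Of 7 spermatogonial markers tested 2 rose (median 0.17). All markers tested for Sertoli cells (8, median 0.79), Leydig cells (6, median 1.16) and macrophages (6, median 1.43) rose, and the macrophage sum was 36.3 to 44.3 CPM in WT and 112 to 114 CPM in KO. Their part in the members' fall was not tested. In RNA from a whole testis, fewer cells of a type and less RNA per cell cannot be told apart.

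Set against spermatid markers of the same library, the members differed little from the round spermatid markers and stood above the elongating spermatid markers. The mean log2 CPM of the round spermatid markers was -0.33 in KO minus WT, and relative to it the members' median difference was 0.040, with 9 of 40 below 0. Without KO3, 18 of 40 were below 0. Cylc1 was the only member whose KO libraries all lay below all WT libraries on this scale, at -0.25, with Zpbp2 at -0.14 and Crisp2 at -0.13 overlapping. Gopc stood at the other end, at 0.32, and 11 members had all KO libraries above all WT libraries. The elongating spermatid markers differed by -0.61 on average, and relative to them all 40 members lay above 0, with a median of 0.32. Those markers include protamine and transition protein genes and Gapdhs, which the study reports as MLX targets. The study also shows protamine and transition protein genes among its most down-regulated transcripts in these same data. This scale is therefore not independent of reported MLX targets or of falls already known here. That the members stood above these markers was thus partly built into the choice of markers. Of the 40, 39 had all KO libraries above all WT libraries, and Cylc1, at 0.029, overlapped. These differences are descriptions and carry no test. The counts of separated members were not set beside a share over all genes on these scales, so they cannot be read as particular to the members. In plain CPM, 30.3% of all genes tested had all KO libraries above all WT libraries. A gene at the all-gene median LFC of 0.025 would also stand above both sets of markers.

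**Figure D4:**
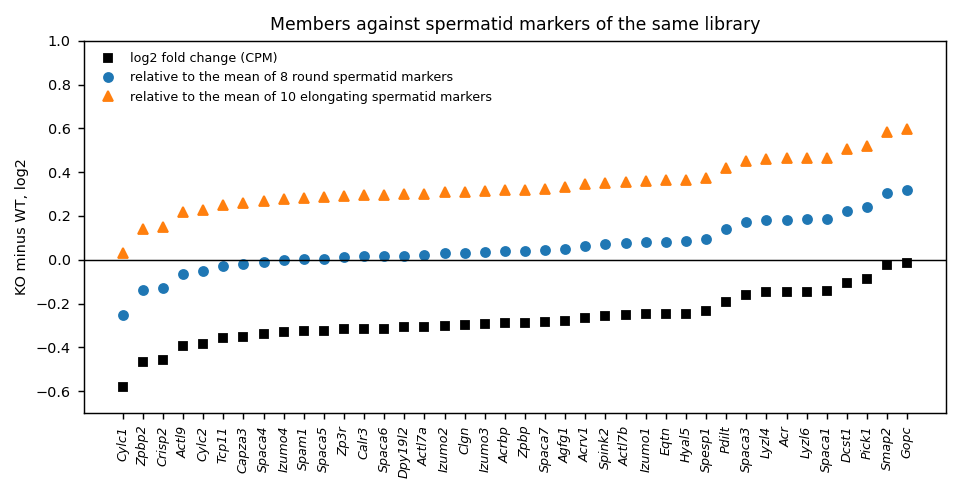
For each member on the horizontal axis, the KO minus WT difference on the log2 scale: the LFC (squares), the level relative to 8 round spermatid markers (circles) and relative to 10 elongating spermatid markers (triangles). The squares lie below 0, the circles lie around 0 with 9 of 40 below it, and the triangles lie above 0, with Cylc1 lowest on each scale.

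Other genes of the same processes, also listed with earlier results of these data known, gave a like count. Of 40 such genes outside the list, all tested, 31 (77.5%) fell and 1 rose, with a median LFC of -0.28. Among all genes tested, 20.6% were called lower and 24.8% higher, with a median LFC of 0.025. The same shares over all genes apply to the counts for each list that follow. All 10 genes for the manchette and head shaping fell, with Spem1, a protein of cytoplasm removal, at -0.54, Cep131 at -0.44 and Sun3, a nuclear envelope protein of spermatids, at -0.35. Spem1 had 550.1, 546 and 542 CPM in WT and 462, 362 and 301 CPM in KO, without overlap and with KO1 nearest to WT (LFC -0.54, SE 0.116, edgeR adjusted p = 0.00309).

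Of 10 further genes for acrosome formation 8 fell, among them Ccdc136 (-0.38), Spata16 (-0.35) and the Golgi protein Tmf1 (-0.34). Of 4 further serine proteases of the acrosome and sperm surface 3 fell: Prss40 (-0.63), Prss21 (-0.37) and Prss55 (-0.34). Prss40 was measured at 47.8, 50.0 and 52.2 CPM in WT and 35.1, 31.9 and 29.6 CPM in KO and fell by 35.6%, more than any member (edgeR adjusted p = 6.99e-05). Of 6 further genes for fusion and egg activation 4 fell, with Cd46, a complement regulator of the acrosomal membrane, at -0.55, Plcz1, the sperm phospholipase that starts egg activation, at -0.29, and 1700034O15Rik (also Llcfc1), a sperm protein for fusion, at -0.26.

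The genes that prepare the sperm surface for the zona were mixed. Of 10 measured, 6 fell and 1 rose. Rnase10, mainly known from the epididymis, had low levels here, at 3.95, 4.96 and 4.23 CPM in WT and 2.58, 2.38 and 3.23 CPM in KO, and fell (LFC -0.68, SE 0.179, edgeR adjusted p = 0.00991), a call lost with the pair as a block in DESeq2 (adjusted p = 0.0789). Prss37, a protease relative needed to mature surface proteins, was at LFC -0.40 and Adam2, a subunit of the fertilin complex, at -0.31. Ly6k, a GPI-anchored protein of the same maturation step, was called higher, but its libraries overlapped, at 71.3, 77.5 and 68.0 CPM in WT and 81.7, 82.4 and 77.3 CPM in KO (LFC 0.16, edgeR adjusted p = 0.0460), and DESeq2 did not call it (adjusted p = 0.176). Leaving out WT1, WT3, KO1 or KO2 also ended that call.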

How the data were processed

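RNA-seq of whole testes from 3 WT and 3 MLX KO males was used; 16 ChIP-seq samples of the study were not used here. RNA was extracted with Trizol, and reads were aligned to mm10 with TopHat by the authors. The counting tool, its strand setting and its annotation are not given in the sources used here. The authors deposited raw counts per gene, the values used here. The authors' other columns hold their own comparison of the genotypes (a mean signal, a log2 fold change and its error, a test score, a p-value and an adjusted p-value) and were not used. Of 17933 rows, 2 were repeats, which left 17931 symbols.

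Counts were fitted with edgeR 4.0.16 in R 4.3.3 (TMM factors, filterByExpr with a minimum count of 10, quasi-likelihood test, genotype as the only term), with Benjamini-Hochberg adjustment over the 14640 genes that passed and a threshold of 0.05. All 40 members matched passed the filter. LFC means log2 fold change, with the SE taken from the LFC and the F statistic. CPM used TMM-scaled library sizes, and levels per kb used the summed exon length of GENCODE M21. Ratios of paired genes were tested by exact permutation over the libraries, on log2 counts with 0.5 added. Scripts were checked on simulated counts.

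Titles mark the libraries as paired replicates and the study describes littermate pairs. Deviations from the group means correlated at 0.145, 0.0363 and 0.121 within pairs 1, 2 and 3, and from -0.123 to 0.033 between libraries of different pairs. Deviations within a genotype cancel out, so the values between pairs are not independent of those within pairs. The pairing was not tested by them. As alternatives, the pair number was added to the model as a block, both with edgeR and with DESeq2 1.42.0. Others were DESeq2 without it, its size factors, upper-quartile factors, library size alone, other filters and leaving out each library. Libraries of a genotype were no duplicates: the chi-square of their counts was 2.73 to 8.26 times its degrees of freedom, the largest values being for KO1 against KO2 and KO3. In the fit reported, the p-values weigh the genotype difference against the spread among libraries of a genotype. Each library is from another animal, so spread between animals and between libraries cannot be told apart.

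The members, the lists of related genes and the cell type markers were chosen with earlier results of these data known. All members are named, and from each list of related genes the called genes with the largest LFC, up to 3 in each direction; of the markers, counts, medians and summed levels are given.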

Additional observations from a re-analysis of the deposited data

How the results depend on the processing

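Under the 14 alternatives of the fit, 24 to 36 of the 40 members were called lower and 0 higher; 24 of the 34 calls held in all of them, and 30 held in all but library size alone. Leaving out 1 library gave 30 to 36 calls. The replicate block gave 32 in edgeR and 30 in DESeq2. Shares of all genes called are given only for the reported fit, library size alone and the replicate block. The ranges over the other fits therefore describe the members alone. Spaca1 and Acr lost the call under 7 of the 14 alternatives and Spaca3 and Lyzl6 under 6, among them the fits without WT2, KO2 or KO3 for each of the 4, without WT1 for Spaca1 and Lyzl6, and without WT3 for Acr and Spaca3 (edgeR adjusted p from 0.0650 to 0.152 without those libraries). Scaling by library size alone also ended the calls of Hyal5, Izumo1, Spaca6, Spesp1, Eqtn and Pdilt. Spaca5 was called with DESeq2 size factors (adjusted p = 0.0366) and without WT1 (0.0419), and Lyzl4 and Dcst1 were called without KO1 (edgeR adjusted p = 0.0240 and 0.0358). Some uncalled LFCs changed sign: with library size alone Gopc was at 0.12, Smap2 at 0.11, Pick1 at 0.049 and Dcst1 at 0.033. Without 1 library, Gopc ran from -0.073 to 0.038, above 0 without WT1 and without KO2, and Smap2 from -0.062 to 0.023, above 0 without KO2. Of the 40 related genes, 1 was called higher in the result reported, but 0 with DESeq2, with its size factors in edgeR, without a filter or with the replicate block in DESeq2, and 2 with library size alone, upper-quartile factors or a filter at 1 CPM; leaving out 1 library gave 0 to 1. The number of members below 0 relative to round spermatid markers ran from 7 to 18 without 1 library, against 9 with all, and was 18 without KO3. Relative to elongating spermatid markers it was 0, against 1 with the median of the markers and 0 to 1 without 1 library. The cause of these shifts was not tested. The within-library ratios kept their direction under the alternatives run, except Clgn to Calr3, which ran from -0.014 to 0.050 without 1 library and was below 0 without KO1. With 3 libraries a genotype, a low count such as that of Spaca5 leaves a wide error.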
